A study of Homo sapiens with 13 samples.

Results

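The clustered protocadherin genes encode cell-surface proteins of the cadherin superfamily that give neurons a recognition code. In the alpha and gamma clusters, a row of variable first exons, each with its own promoter, is spliced to constant exons shared by the whole cluster, while the beta genes have no constant exons. Individual neurons choose among the variable promoters at random, the C-type genes at the ends of the alpha and gamma clusters are expressed more evenly, and CTCF and cohesin bring chosen promoters to distant enhancers. Accessible sites over these genes were taken as all ATAC-seq peaks on chromosome 5 within 50 kb of the span of the protein-coding PCDHA, PCDHB and PCDHG genes in hg19, which gave 112 of 129347 peaks. By position, 39 belonged to the alpha cluster (15 genes, chr5:140165721-140391932), 30 to the beta cluster (16 genes, chr5:140430959-140628933) and 43 to the gamma cluster (22 genes, chr5:140710081-140892544). The last group reaches past the gamma genes into DIAPH1, which encodes a formin that assembles actin filaments.

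Accessibility was measured in T98G, an established human glioblastoma line, by ATAC-seq, in which the Tn5 transposase inserts sequencing adapters into open DNA. The 3 G1 libraries came from cells kept without serum for 72 h. The 3 M-phase libraries came from cells kept without serum for 48 h. These cells were then released for 36 h in serum-containing medium with nocodazole, a microtubule poison that arrests cells in mitosis, and shaken off. The G1 libraries were run on a HiSeq and each M-phase replicate on a HiSeq and a NextSeq, so phase, serum release and platform cannot be told apart. Nothing states that the replicates were separate cultures, and p-values then measure only the spread between these libraries.

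The deposited values are reads in peaks scaled down to the smallest library, called scaled counts here. Reads recovered from them numbered 4333935 to 5365024 in G1 and 12470564 to 14202790 in M-phase over all peaks, and 3537 to 4604 in G1 and 6526 to 7262 in M-phase over the protocadherin region. The median site of the region held 9 to 14 reads in a G1 library. Of the 112 sites, 59 passed the filter on low values and were tested, and 53 did not. As a check of the cell type, 7 of 8 glioblastoma and mesenchymal marker genes (all but NES) had an accessible promoter, among them VIM, CD44 and EGFR, but so had INS, EPCAM and SYP from the list of marker genes of other cell types. A lower scaled count can mean that fewer cells had the site open or that it was less open in each cell, and these cannot be told apart.

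The sequence of the region bears on how its reads can be placed. Variable exons are tandem copies that can share near-identical stretches, and the mapping kept 1 location for reads with up to 3. The following 70-base stretches show this for the alpha cluster. The first line is the centre of the PCDHA11 peak, the site with the highest scaled count among the first exons of alpha variable genes. The other lines are the best ungapped matches in the first exons of other alpha genes, and capitals mark bases that differ from the first line. All are on the plus strand of hg19.
PCDHA11, chr5:140250292-140250361: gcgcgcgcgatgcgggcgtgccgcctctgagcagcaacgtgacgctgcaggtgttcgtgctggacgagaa
PCDHA7, chr5:140215575-140215644: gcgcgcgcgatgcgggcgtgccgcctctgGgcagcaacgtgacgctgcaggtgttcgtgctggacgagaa
PCDHA9, chr5:140229687-140229756: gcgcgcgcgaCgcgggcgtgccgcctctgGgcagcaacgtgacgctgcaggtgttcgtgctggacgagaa
PCDHA12, chr5:140256664-140256733: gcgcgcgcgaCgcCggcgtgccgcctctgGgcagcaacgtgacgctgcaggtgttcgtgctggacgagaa
PCDHA4, chr5:140188379-140188448: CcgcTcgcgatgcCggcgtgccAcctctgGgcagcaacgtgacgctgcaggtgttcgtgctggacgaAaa
All 12 other alpha variable genes kept 64 to 69 of the 70 bases. The stretch lay within a peak in 7 of the 13 genes, and PCDHA9, with 68 bases the same, had no peak in its promoter or first exon. Over the whole region, 75 of 112 sites consisted only of 50-base words found once in the genome. In 24 sites, 9 alpha, 5 beta and 10 gamma, under 90% of the words were single copy, and the counts of these sites are uncertain for that reason.

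Accessibility in the protocadherin region rose at no tested site and fell in M-phase at 10 of 59. Inside the gene span 6 of 52 sites fell (11.5%), beside 12.6% of all 71774 peaks tested in the genome, and the other 4 lay in the neighbouring DIAPH1 gene. The 10 lower sites together are 16.9% of those tested, and 4 of them lie in the 50 kb flank. No site was called higher, beside 14.6% of all tested peaks, and calls in either direction made up 27.2% of these. These calls come from limma with Benjamini-Hochberg adjustment over all tested peaks at an adjusted p of 0.05. At an unadjusted p under 0.05, limma gave 2 sites higher and 14 lower. edgeR on the recovered reads called 0 higher and 10 lower, and DESeq2 0 higher and 11 lower, with 1 site higher at an unadjusted p under 0.05 in each. The median difference over all 112 sites, M-phase minus G1 on the log2(scaled count + 8) scale, was -0.04, beside 0.07 over all peaks. On this scale the change of weak sites is understated. In 13 of the 59 sites every M-phase library lay below every G1 library, as in 17.8% of all tested peaks, and in 2 every M-phase library lay above, as in 20.2%. Without G1 replicate 3, 4 sites were lower and 1 was higher. Leaving out M-phase replicates 1, 2 or 3 left 5, 5 and 6 lower sites.

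**Figure D1:**
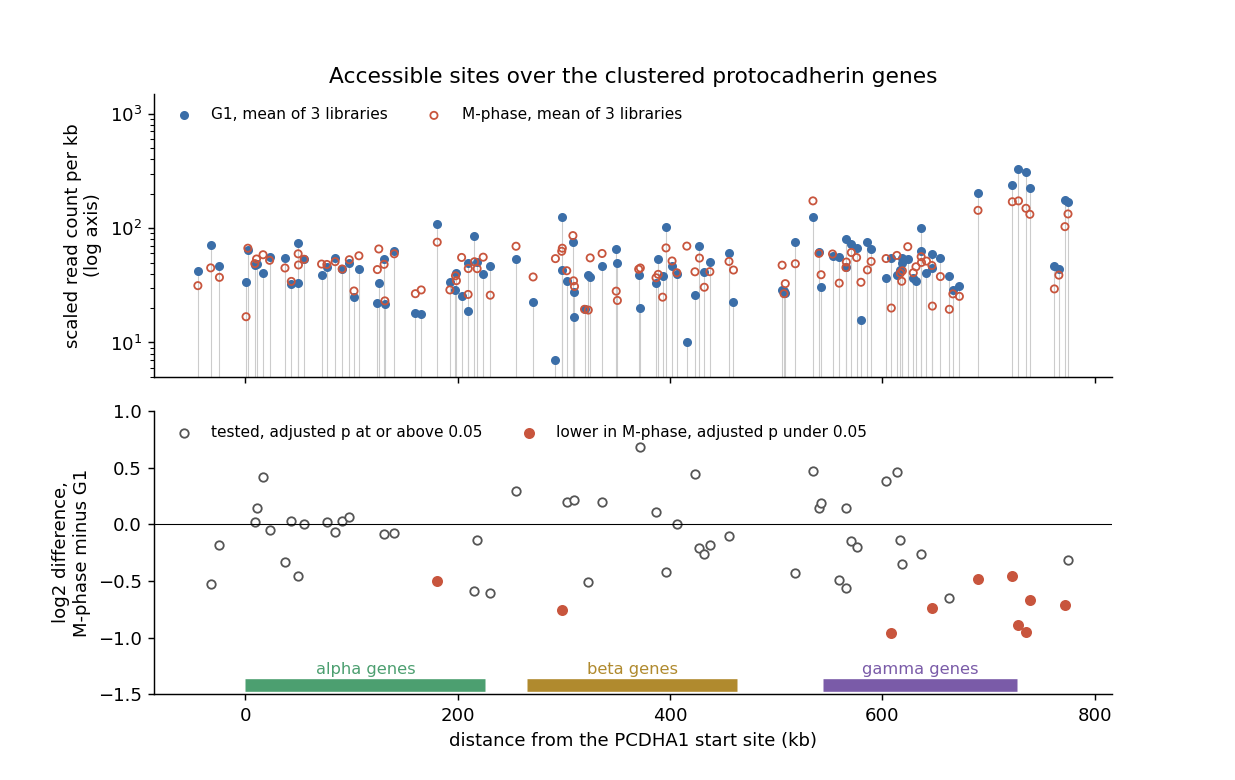
Each point is a site, placed by its distance in kb from the PCDHA1 start site. The upper panel gives the scaled read count per kb on a log axis (filled, mean of 3 G1 libraries; open, mean of 3 M-phase libraries) and the lower panel the log2 difference of the 59 tested sites, with the 10 lower in M-phase filled. Coloured bars mark the gene spans, and 6 of the 10 filled points lie from the PCDHGC3 promoter, near 690 kb, to the right.

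By cluster, 1 of 20 tested alpha sites (5%), 1 of 15 beta sites (6.67%) and 8 of 24 gamma sites (33.3%) fell. The share of all tested peaks was 12.6%. Of the 8 gamma sites, 4 lay outside the gamma genes, in the DIAPH1 flank. The scaled counts summed over the alpha cluster were 941.6, 972.9 and 1071 in G1 and 874.3, 829.7 and 970.2 in M-phase, a log2 ratio of -0.16 (two-sided exact permutation test, p = 0.2). The groups overlapped. The beta sums were 387.8, 418.8 and 345 in G1 and 395.6, 381.6 and 345.3 in M-phase, a log2 ratio of -0.03 (exact permutation p = 0.8). The gamma sums were 2187.5, 2205.7 and 2991 in G1 and 1721.9, 1656.1 and 1824.9 in M-phase, a log2 ratio of -0.49 (exact permutation p = 0.1, the smallest that 3 libraries against 3 can give). Every M-phase gamma sum lay below every G1 sum, and G1 replicate 3 was the highest of the 6. Without it the ratio was -0.34, and over the gamma genes without the flank it was -0.28. In a split made after the values were seen, and so not tested, the 34 gamma sites before the PCDHGC3 promoter changed by -0.05 and the 9 sites from that promoter to the end of the region by -0.65. When all libraries were given the same total in peaks, the log2 ratios were -0.51, -0.39 and -0.85 for alpha, beta and gamma, and the median of all peaks moved from 0.07 to -0.12. With these totals 18 sites were lower and 0 higher, beside 25.1% and 8.79% of all tested peaks.

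**Figure D2:**
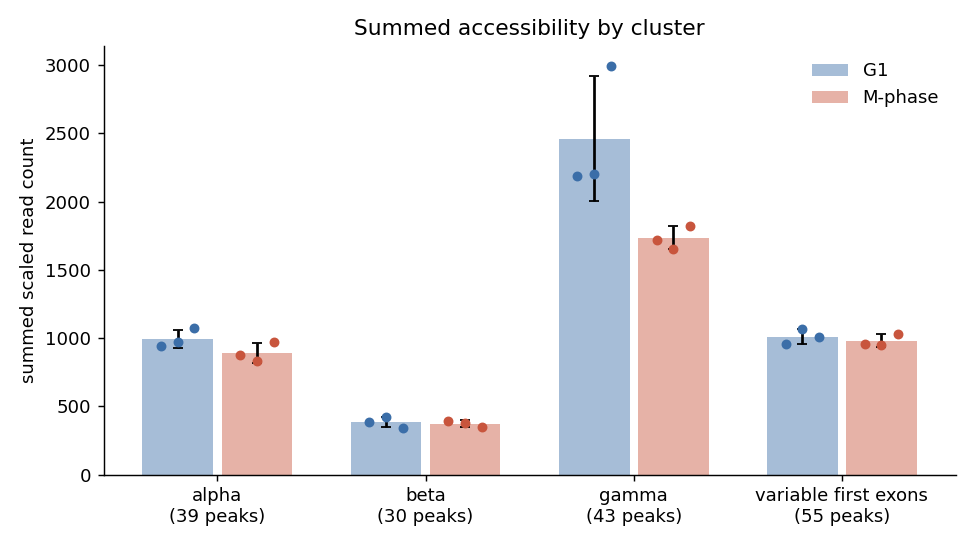
Bars give the mean scaled read count summed over the sites of each cluster and over the 55 sites in variable first exons, with SD over 3 libraries as error bars and a point per library. The gamma sums of G1 and M-phase do not overlap, while those of the other 3 sets do.

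The C-type genes sit at the ends of the alpha and gamma clusters and lie closest to the constant exons. At the promoter of PCDHAC2 (chr5:140345690-140347312), the scaled counts were 149.1, 182.8 and 198 in G1 and 127.3, 116.2 and 123.2 in M-phase. The groups did not overlap, and the site fell by 0.50 on the log2 scale (SE 0.20, limma adjusted p = 0.0495). Leaving out any library but G1 replicate 1 raised the adjusted p above the threshold, to at most 0.18, as did a pseudocount of 1 (0.0548), no filter on low values (0.0793) and no mean-variance trend (0.128). At the promoter of PCDHGC3 (chr5:140855126-140856479), the counts were 227.7, 254.7 and 335 in G1 and 203.5, 147.5 and 230.5 in M-phase. The highest M-phase library lay between G1 libraries, and the site fell by 0.48 (SE 0.19, limma adjusted p = 0.0459). The call was lost without G1 replicate 3 (adjusted p = 0.167) and without M-phase replicate 1 or 2 (0.0758 and 0.388). It was also lost with a pseudocount of 1 (0.0578), no filter (0.06) and no trend (0.176). PCDHAC1, the other alpha C-type gene, had counts of 51.7, 47.7 and 57 in G1 and 53.6, 36.7 and 58.7 in M-phase at its promoter, a log2 difference of -0.08 (adjusted p = 0.854) between overlapping groups. PCDHGC4 and PCDHGC5 had no peak in their promoter or first exon.

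The 200 bases before the first start sites of PCDHAC2 and PCDHGC3 lie inside the peaks that fell. They are shown on the plus strand with CG dinucleotides, the sites of DNA methylation, in capitals.
PCDHAC2, chr5:140345855-140346054: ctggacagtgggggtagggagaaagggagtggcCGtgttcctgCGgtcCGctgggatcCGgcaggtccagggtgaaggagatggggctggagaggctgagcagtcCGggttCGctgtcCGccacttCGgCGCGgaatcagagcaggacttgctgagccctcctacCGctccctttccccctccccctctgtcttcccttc
PCDHGC3, chr5:140855314-140855513: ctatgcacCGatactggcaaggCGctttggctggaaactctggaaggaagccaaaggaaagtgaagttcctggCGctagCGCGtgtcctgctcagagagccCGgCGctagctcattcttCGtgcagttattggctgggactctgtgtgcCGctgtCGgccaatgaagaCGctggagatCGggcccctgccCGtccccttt
They hold 11 and 13 CG dinucleotides with a GC content of 65.5% and 59%. Both peaks were entirely single copy.

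The sites at and beyond the gamma constant exons were among the most accessible of the region. The site between the gamma constant exons (chr5:140886997-140889253), where a short alternative PCDHGC3 transcript also starts, had counts of 465.3, 471.1 and 674 in G1 and 395.9, 398.4 and 357.5 in M-phase. It fell by 0.46 (SE 0.16, limma adjusted p = 0.0292) with no overlap. Its adjusted p was 0.142 without G1 replicate 3 and 0.0616, 0.0869 and 0.15 without M-phase replicates 1, 2 and 3, and 0.178 without the trend. Just past the gamma genes, the site at the last exon of DIAPH1 (chr5:140893268-140894590) had 392.7, 368 and 556 in G1 and 204.3, 239 and 244.9 in M-phase. It fell by 0.89 (SE 0.18, limma adjusted p = 2.9e-05), the smallest adjusted p of the region. The next, in a DIAPH1 intron (chr5:140900603-140901336), had 167, 193 and 319 in G1 and 109.2, 99.7 and 119.3 in M-phase, and fell by 0.95 (SE 0.20, limma adjusted p = 0.000118). Neither call was lost in any of the 17 other settings tried. The site at an alternative DIAPH1 start (chr5:140904240-140905036) fell by 0.67 (SE 0.20, limma adjusted p = 0.00801) from 162.1, 134.4 and 234 to 100.5, 99.7 and 116.4. Without G1 replicate 3 its adjusted p was 0.0676, without M-phase replicate 2 it was 0.0501, and without the trend 0.0546. The site shared by DIAPH1 and its antisense gene DIAPH1-AS1 (chr5:140937279-140938080) fell by 0.71 (SE 0.21, limma adjusted p = 0.00626) from 146.1, 118 and 156 to 67.1, 77.5 and 104.4. It was lost without M-phase replicate 1 (adjusted p = 0.0745). Of the 5 tested sites after the last gamma gene 4 fell, against 6 of 52 (11.5%) inside the gene span and 12.6% of all tested peaks. Per kb, the last-exon and intron sites of DIAPH1 reached 332 and 308 scaled counts in G1, against 238 between the constant exons, 201 at PCDHGC3 and 109 at PCDHAC2. G1 replicate 3 was the highest library at all 5 of the sites between the constant exons and DIAPH1-AS1 described here. This library was also higher over all peaks, with 5092426 scaled counts, against 4309292 and 4191845 in G1 replicates 1 and 2.

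**Figure D3:**
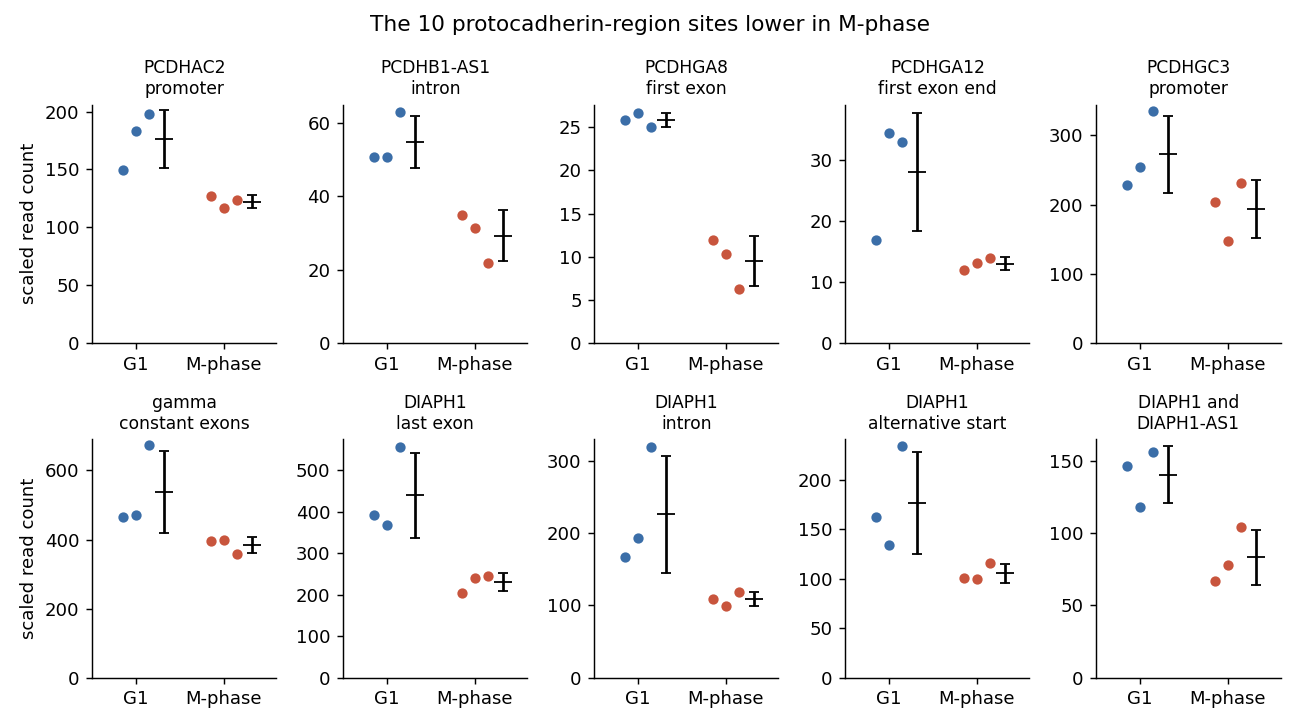
Scaled read counts of the 10 sites lower in M-phase, with a point per library and, beside the points, the mean with SD over 3 libraries. At 9 of the 10 sites every M-phase library lies below every G1 library, and at the PCDHGC3 promoter they overlap.

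With the authors' scaling, strong peaks elsewhere in the genome mostly moved the other way. In total, the M-phase libraries held 5475345 to 6000423 scaled counts in peaks and the G1 libraries 4191845 to 5092426. With equal totals, 8.79% of all tested peaks were higher and 25.1% lower, and strong peaks were not counted apart. With the authors' scaling, 12445 tested peaks had a mean of at least 100 scaled counts. Of these, 55.4% were called higher and 5.95% lower in M-phase, with a median log2 difference of 0.55. The protocadherin region held 8 sites at this level, with a median of -0.58, of which 7 fell. The exception was the promoter of TAF7, a subunit of the general transcription factor TFIID encoded between the beta and gamma genes, with 123.3, 113.3 and 170 in G1 and 170.1, 202.3 and 192 in M-phase. Its log2 difference of 0.47 (SE 0.20, adjusted p = 0.0653) passed the threshold without G1 replicate 3 (adjusted p = 0.00444) and when at least 10 was required in every library (0.0437). At the site between the constant exons, 1.7% of 1333 peaks of like level had a lower value, and their median was 0.86. For the last-exon site of DIAPH1 it was 0.8% of 2099 peaks, for its intron site 2.7% of 2998 and for the PCDHGC3 promoter 4.1% of 2787. The remaining strong sites that fell lay above the 5th percentile. Their shares were 5.1% at the alternative DIAPH1 start, 8.1% at the PCDHAC2 promoter and 8.8% at the site shared with DIAPH1-AS1. None of the 51 weaker tested sites lay below the 5th percentile of peaks of like level. The comparison by level and its cut at 100 were not planned in advance. These shares describe the sites and carry no test.

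**Figure D4:**
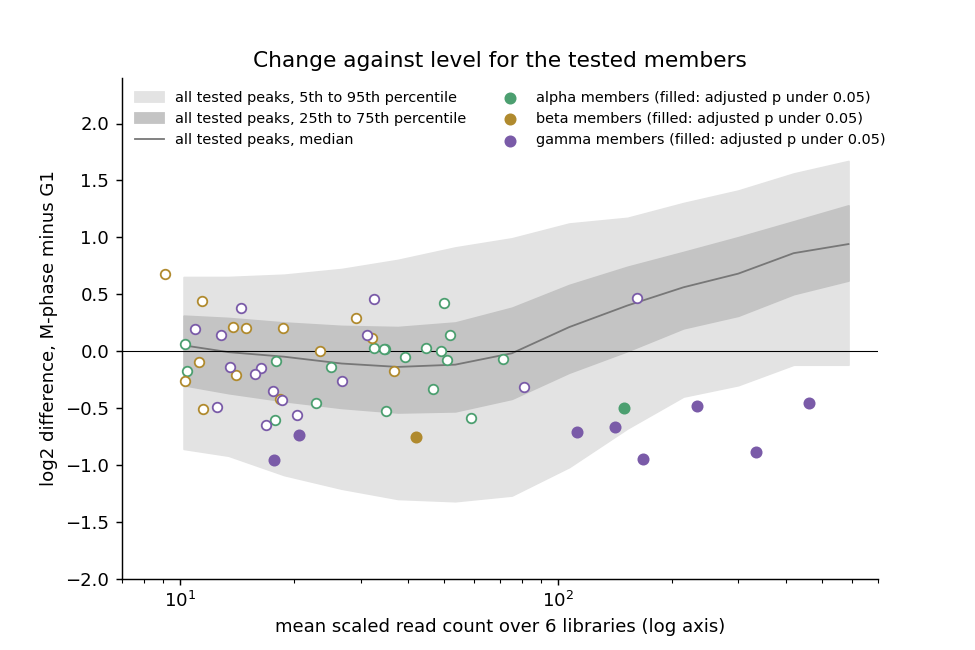
Log2 difference of the 59 tested sites against their mean scaled read count over 6 libraries (log axis), coloured by cluster and filled where the adjusted p was under 0.05. Grey bands give percentiles of all 71774 tested peaks by level, with the authors' scaling. Their median climbs at the higher levels, while 7 of the 8 sites above 100 lie at negative values.

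The variable first exons, which carry the diversity of the family, held weak sites of similar height in both phases. A total of 55 sites had their centre in the first exon of a variable gene, taken as the longest annotated one. For some genes this exon is long. At PCDHA10 it spans 12358 bases, against a median of 2676 at the alpha sites, and includes a site 7105 bases after the start. The 55 sites had a median of 48.4 scaled counts per kb in G1 and 47.1 in M-phase. Their summed counts were 953.8, 1063.5 and 1011 in G1 and 958.3, 949.7 and 1033.7 in M-phase, a log2 ratio of -0.04 between overlapping groups (exact permutation p = 0.6). With equal totals in peaks this ratio was -0.40. Of these sites 31 were tested and 1 fell, and of the 12 tested alpha sites limma called 0 in either direction, and 0 at an unadjusted p under 0.05. The 12 alpha differences ranged from -0.46 to 0.42. Peaks were found in the promoter or first exon of 46 of the 53 genes, and the genes without one were PCDHA9, PCDHB3, PCDHB6, PCDHGA1, PCDHGA7, PCDHGC4 and PCDHGC5.

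In the alpha and gamma clusters the median of these sites lay past the middle of the exon, at 59.0% and 62.1% of its length. The sites were widely spread, from 10.3% to 89.3% in alpha and from 6.41% to 86.2% in gamma, so some lay near the start. These percentages depend on the length of the longest annotated first exon. The PCDHA4 site, 2013 bases after the start, lay at 19.1% of 10557 bases. The PCDHA13 site, 2001 bases after the start, lay at 78.8% of 2539 bases. The median centre was 1905 bases after the first annotated start site in alpha and 1876 in gamma, against 826 in beta. Among tested sites the medians were 1905, 1910 and 355 bases. The alpha and gamma sites had a median GC content of 65.6% and 64.2%, against 48.3% in beta.

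**Figure D5:**
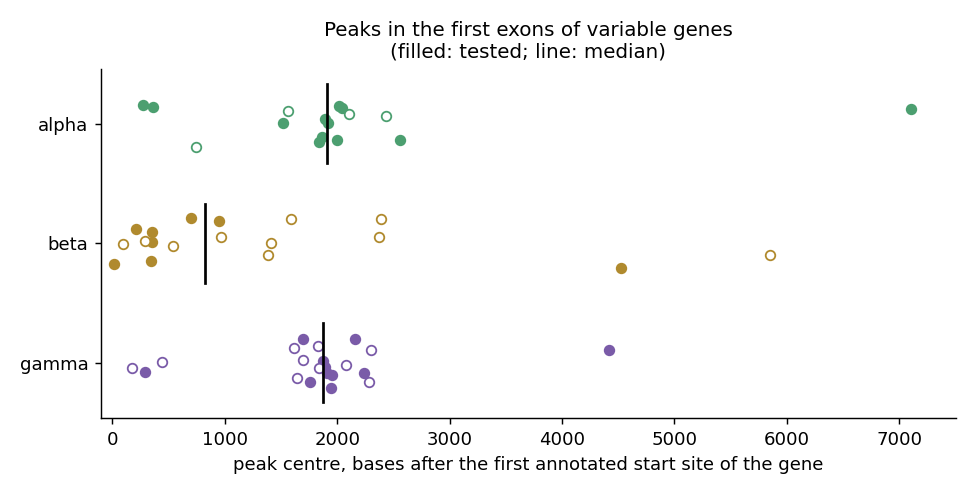
Centre of each of the 55 sites in variable first exons, in bases after the first annotated start of its gene, by cluster (vertical jitter only separates points). Filled points were tested, open ones did not pass the filter, and lines give the medians, 1905 for alpha, 826 for beta and 1876 for gamma.

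The called site among these 55 was that of PCDHGA8, and a peak that reaches past the end of the PCDHGA12 first exon is described after it. The PCDHGA8 site (chr5:140773907-140774381) had 25.8, 26.6 and 25 scaled counts in G1 and 11.9, 10.3 and 6.3 in M-phase. The groups did not overlap, and it fell by 0.96 on the log2 scale (SE 0.29, limma adjusted p = 0.00653), a call kept in all 16 other settings that could test it. These values rest on 25 to 34 reads in G1 and 13 to 29 in M-phase. Only 66.9% of its 50-base words were single copy, and the centre of the peak was compared with the related genes because reads may have been placed in any of them. Capitals mark differences from PCDHGA8.
PCDHGA8, chr5:140774110-140774179: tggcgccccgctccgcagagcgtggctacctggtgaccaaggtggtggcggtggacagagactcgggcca
PCDHGA2, chr5:140720268-140720337: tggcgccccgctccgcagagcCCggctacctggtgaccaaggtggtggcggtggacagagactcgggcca
PCDHGA11, chr5:140802527-140802596: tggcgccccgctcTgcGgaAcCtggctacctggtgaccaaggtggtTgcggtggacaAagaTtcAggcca
PCDHGB5, chr5:140779412-140779481: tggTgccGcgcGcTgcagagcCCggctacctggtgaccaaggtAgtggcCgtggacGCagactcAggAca
The stretch begins 1910 bases after the nearest annotated PCDHGA8 start, and the 18 other gamma variable genes kept 55 to 68 of its 70 bases. The match lay in a peak in 5 of these genes, none of them called. The PCDHGA11 site had 27.8, 29.7 and 32 in G1 and 27.6, 22.7 and 20.7 in M-phase (log2 difference -0.26, adjusted p = 0.527), and the PCDHGB5 site 23.9, 34.4 and 20 in G1 and 39.5, 27.6 and 50 in M-phase (0.46, adjusted p = 0.216). Those of PCDHGA4, PCDHGB2 and PCDHGB4 had log2 differences of -0.15, -0.20 and 0.38 (adjusted p = 0.751, 0.668 and 0.376).

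At the end of the PCDHGA12 first exon (chr5:140812506-140813133), counts of 16.9, 34.4 and 33 in G1 and 11.9, 13.2 and 14 in M-phase gave a fall of 0.74 (SE 0.29, limma adjusted p = 0.0433). Leaving out any library but G1 replicate 1 ended this call, with adjusted p-values up to 0.173, as did loess scaling (0.0941) and no filter (0.0547). The lower beta site, in an intron of the antisense gene PCDHB1-AS1 (chr5:140464094-140464533), had 50.7, 50.8 and 63 in G1 and 35, 31.3 and 21.7 in M-phase. It fell by 0.76 (SE 0.25, limma adjusted p = 0.0163), with adjusted p-values of 0.0501 without G1 replicate 3, 0.113 without M-phase replicate 3 and 0.0529 under loess scaling.

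A peak within 500 bp of a start site was present for 20 of the 53 genes, and 16 of the 22 such peaks were tested. Besides the 3 that fell and PCDHAC1, the other alpha promoters were those of PCDHA2 (means 34.4 and 35.1 in G1 and M-phase), PCDHA8 (49 and 49) and PCDHA11, at a shorter transcript (73.6 and 69.1), with log2 differences of 0.02, -0.00 and -0.07. Among the beta genes, which are each transcribed as a unit without a constant exon, the promoters of PCDHB2, PCDHB4, PCDHB7, PCDHB10, PCDHB13, PCDHB14 and PCDHB16 were tested. Their log2 differences were 0.21, 0.20, 0.11, 0.00, -0.21, -0.18 and -0.42, and none was called (adjusted p from 0.304 to 0.996). The PCDHB14 promoter, at 55.7, 39.1 and 26 in G1 and 37.9, 34.2 and 27.9 in M-phase, was the strongest of them. In the gamma cluster PCDHGA8 and PCDHGA9 had differences of 0.38 and -0.14 (adjusted p = 0.376 and 0.781). The PCDHGA8 promoter peak lies inside the first exon of PCDHGB4. Of the 16 tested protocadherin promoter peaks 3 fell (18.8%) and 0 rose. Promoter peaks in the whole genome, within 500 bp of any protein-coding start, were called higher at 42.3% and lower at 5.68%. The 2 sets differ in level and were not matched for it. The median was 16.7 scaled counts over the 22 protocadherin promoter peaks and 125 over those of the genome.

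At the 50 kb limits, the outermost site before the alpha genes had means of 7.87 in G1 and 5.9 in M-phase and was not tested, while the nearest peak outside had 195 and 247 (log2 difference 0.38, adjusted p = 0.145). At the other end, the last site inside, at another DIAPH1 start, had 90.6 and 71.5 (-0.32, adjusted p = 0.311) and the nearest peak outside 22 and 17.9 (-0.19, adjusted p = 0.682).

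Few of these sites held the letters of a CTCF site. The letters searched were CCA, any 2 bases, AG, any 2 bases and GGC, a part of the CTCF consensus. On either strand of the central 200 bp they were found in 1 of 112 sites (0.893%), beside 2.18% of all peaks, and over whole peaks in 3 sites (2.68%, beside 4.34%). Among the sites that fell, only the alternative DIAPH1 start held them. The match is shown in capitals with its flanks, 5′ to 3′ on the minus strand.
DIAPH1, chr5:140904447-140904486: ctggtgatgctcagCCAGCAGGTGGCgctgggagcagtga
A match describes these letters and is not evidence of binding, and sites without them may still bind CTCF. The ratio of observed to expected CpG had a median of 0.48 over the region and 0.21 over all peaks.

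Related cadherin genes and regulators of the clusters were followed at their promoters. Their counts stand beside the 42.3% of promoter peaks in the genome called higher and the 5.68% called lower. The counts further below are of genes, each taken as changed if any of its peaks was called. By tested peak, 4 of 9 (44.4%) fell for non-clustered protocadherins and 3 of 14 (21.4%) rose for cadherins. For giant cadherins 4 of 11 (36.4%) rose and 1 (9.09%) fell, and for the regulators 17 of 23 (73.9%) rose. No other peak of these lists was called. These shares are not matched for level. Promoter peaks in the genome had a median of 125 scaled counts, against 48.1 for non-clustered protocadherins, 45.6 for cadherins and 39.5 for giant cadherins. All tested peaks around a level of 53.4 had a median difference of -0.12, and those around 106.9 had 0.21. Of the 8 non-clustered protocadherin genes that could be tested, none rose and 4 fell, by 0.88 (PCDH7), 0.47 (PCDH9), 0.80 (PCDH10) and 1.29 (PCDH17) on the log2 scale, with limma adjusted p-values of 0.0041, 0.0475, 0.00874 and 0.000185. At the PCDH17 promoter the counts were 27.8, 53.1 and 63 in G1 and 23.1, 12.4 and 8.7 in M-phase. The PCDH9 call rested on G1 replicate 3 at 480, against 241.6 and 283.6 in the other G1 libraries, and its difference without that library was -0.19 (adjusted p = 0.44). This call was also lost without any 1 of the M-phase libraries, with a pseudocount of 1, without a filter and without the trend. The PCDH10 call was lost without M-phase replicate 2 (adjusted p = 0.0751). Of 11 genes tested for classical and related cadherins, CDH2 (0.64), CDH11 (0.76) and CDH13 (0.71) rose and none fell. Under loess scaling, however, CDH2 turned to -0.18 and CDH11 and CDH13 were not called. CDH2 was not called without the trend either, nor CDH13 with equal totals. Among 8 giant cadherin genes, FAT1 (1.12), CELSR1 (0.55) and CELSR3 (0.62) rose, and DCHS2 fell by 0.65 (adjusted p = 0.0485). CELSR1 rose at only 1 peak, and its other tested peaks differed by -0.33 and -0.49 (limma adjusted p = 0.428 and 0.208). The called peaks of CELSR1 and CELSR3 turned negative under loess scaling and were not called with equal totals or without the trend. Nor was that of CELSR1 called without M-phase replicate 2. The DCHS2 call was lost in 10 settings, with loess scaling, a pseudocount of 1, no filter, at least 10 in every library, no trend, edgeR with the authors' scaling, and without G1 replicates 2 or 3 or M-phase replicates 1 or 2. Of 18 genes for proteins that fold or silence the clusters, 15 rose and none fell, with the largest differences at SMCHD1 (1.66), which silences clustered genes, NIPBL (1.62), which loads cohesin, and TRIM28 (1.33), a corepressor. Their promoter peaks were strong, with a median of 186 scaled counts, a level above 100 at which 55.4% of all tested peaks rose. The CTCF promoter itself rose by 1.21, from 470.2, 465.6 and 475 to 1037.3, 1138 and 1120.2. The median over the promoter peaks of these regulators was 0.68 and stayed positive under every scaling tried, the lowest being 0.28 with loess scaling, where 8 of their 26 peaks rose and 1 fell.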

How the data were processed

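ATAC-seq libraries of T98G cells in G1 and M-phase were analysed, 3 of each. Chromatin fraction and input samples were not analysed here. Peaks are broad macs2 calls that the authors made per phase from pooled replicates and joined across phases. The alignments beneath them, to hg19 by Rbowtie in QuasR, hold 1 location for a read with up to 3, and exclude the mitochondrial genome (samtools). Adapters had been cut off with cutadapt. Versions and any Tn5 shift are not given in the sources used here. The deposited signal values are reads in peaks that the authors scaled to the smallest library and rounded to 0.1. How HiSeq and NextSeq runs of an M-phase replicate were joined is not stated. The authors' columns of log2 change and its SD were not used, and no per-sample column was left out.

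Sites were assigned with GENCODE release 44 lifted to GRCh37. The log2(scaled count + 8) values of 71774 peaks entered limma 3.58.1 (R 4.3.3) with its mean-variance trend. These were peaks with at least 10 in at least 3 libraries and a total of at least 15. In simulated data with 200 changed peaks drawn from all levels, limma recovered 0.5%, 17.5% and 86.5% of those changed 1.5-, 2- and 4-fold. The peaks tested numbered 66842, 66910 and 66813, with 0, 2 and 6 false calls. Reads were recovered as whole multiples of the value of 1 read (at least 99.99% of values in each library) and tested with edgeR 4.0.16 and DESeq2 1.42.0. Rounding is coarse against the step of 0.412 in M-phase replicates 1 and 2. Sums were tested with two-sided exact permutation tests. GC content, CpG ratio, CTCF letters and copies of 50-base words were computed from the genome with Python 3.11.15, numpy 2.4.6, pandas 2.3.3 and numba 0.67.0, and figures drawn with matplotlib 3.10.9.

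The members, lists and alternatives were chosen with earlier results of these data known. Named were all clustered protocadherin genes with a tested promoter peak, all members with an adjusted p under 0.05, the 5 with the highest mean, those nearest the 50 kb limits, and called genes of the 4 lists of other cadherins and cluster regulators, or where over 6 were called the 3 largest rises and falls. Marker genes served only to check the cell type. The CTCF gene and the genes set beside PCDHGA8 were added after their values were seen. Alternatives were other scalings (TMM, equal totals, loess), a pseudocount of 1, other filters, no trend, edgeR and DESeq2, a replicate block, each library left out, no flank, single-copy sites only and promoter sites only. A marker gene of other cell types is not reported here.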

Additional observations from a re-analysis of the deposited data

How the results depend on the processing

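The number of lower sites was 10 as reported. It was 18 with equal totals in peaks, where 25.1% of all tested peaks were lower and 8.79% higher, and 6 without the mean-variance trend, the cause of which was not tested. It was 6 without the flanks and 3 at protocadherin start sites alone, settings that hold fewer sites. Leaving out a library gave 4 to 10. The other settings gave 7 to 13. Higher sites numbered 0 as reported, 1 without a filter on low values (a weak PCDHB11 site), 1 with at least 10 in every library (TAF7), and 0 to 1 with a library left out. The median difference of -0.04 became -0.11 with TMM, -0.24 with equal totals, -0.15 with at least 10 in every library and 0.01 without the flanks. The summed log2 ratio of alpha became -0.30 with TMM and -0.51 with equal totals, that of beta -0.17 and -0.39, and that of gamma -0.85 with equal totals and -0.28 without the flanks. Two-sided p-values of sums cannot go below 0.1. With equal totals PCDHA2 (-0.26) and PCDHB7 (-0.17) changed sign, neither being called, and with loess CDH2 (-0.18), CELSR1 (-0.30) and CELSR3 (-0.07) did. Same-numbered libraries did not deviate together (r = 0.00879, -0.0102 and 0.031), so the replicate numbers were not taken as pairs, and with a replicate block 0 sites were higher and 11 lower. A 2-fold change was recovered at 17.5% of the 200 peaks changed in a simulation, which were drawn from all levels. In the data 27.2% of tested peaks were called, so the simulated share is not a measure of recovery here. Changes of that size at weak sites could still be missed at this depth, which was not tested.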
